A study of Rattus norvegicus with 4 samples.

Results

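Genes of lipid uptake, storage and cholesterol efflux were read in NR8383, a rat cell line started from lung lavage used to stand in for macrophages of the airspace. The members were 10 named genes, taken by accession from the scanner files, and had 11 of 45598 gene probes, printed as 38 spots on each array, out of 16526 named genes. All 4 arrays, of 1 colour, hold RNA of biological replicates that received the zinc iron oxide particle NRCWE021 (ZnFe2O4) at 17 µg/mL and were kept with it for 4 h. The labels put the cells at 20 passages. Arrays of unexposed cells were not analysed here. The values describe these genes in exposed cells, with their spread over the 4 arrays. That spread joins differences between cultures with those between arrays and their scaling. None of the values is a response to the particle.

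Macrophages take up lipoproteins through scavenger receptors and fatty acids freed by lipoprotein lipase, and they carry fatty acids in the cytosol on small binding proteins. Lysosomal acid lipase frees cholesterol from ingested lipoproteins. The cholesterol is then esterified and kept in droplets coated by perilipins, or passed out of the cell through ABC transporters to apolipoproteins. Oxysterols acting on the liver X receptors (LXR) and fatty acids acting on PPARs switch on many of these genes, and the alveolar macrophage is known for this programme because it clears surfactant lipid from the airspace.

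The 4 arrays did not have the same range. Replicates 2 and 3 read dim probes far higher than replicates 1 and 4 did: the dimmest of 10 spike-in probes, control RNAs added to each sample, had a signal of 3.83, 537, 109 and 3.92 intensity units on replicates 1 to 4. A gene counts as detected on an array where most spots of 1 of its probes carried the flag for a signal well above background. By that rule 52.2%, 91.5%, 75.3% and 46.2% of 16526 named genes were detected on replicates 1 to 4. Values are therefore given by array, and a level is the log2 signal minus the 75th percentile of the array. All macrophage markers but Adgre1 and Marco were detected on all 4 arrays, 7 of 9 measured. Among them were Cd68 with a level of 5.51 ± 1.77 (SD, n = 4) and Cd14 with -0.36 ± 1.12. The leukocyte antigen gene Ptprc had 1.73 ± 1.96 and the lineage factor Spi1 had 3.05 ± 1.20. On replicate 2 the Cd14 signal of 244 was under the dimmest spike-in.

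Of the 10 genes, 8 were detected on all 4 arrays, where 42.4% of all named genes were, and the same 8 on replicates 1 and 4, where 45.9% were. They were the efflux transporters Abca1 and Abcg1, the lipase genes Lpl and Lipa, the droplet protein gene Plin2, the binding proteins Fabp4 and Fabp5, and Soat1. Apoe was detected on 3 arrays, and Scd on replicates 2 and 3 alone, a pattern shared by 27.7% of all named genes. Another threshold was the dimmest spike-in of the same array plus 3 SD of its spots. Of 35 spots of that spike-in the flag was set for 0, 35, 34 and 0 on replicates 1 to 4, so this threshold was stricter than the flag on replicates 2 and 3 and looser on the pair of replicates 1 and 4. On all 4 arrays 5 members passed it, namely Abcg1, Lpl, Plin2, Fabp5 and Lipa, where 15.4% of all named genes passed. On replicates 1 and 4 alone, 9 members passed it, all but Scd, where 51.9% of all named genes passed.

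**Figure D1:**
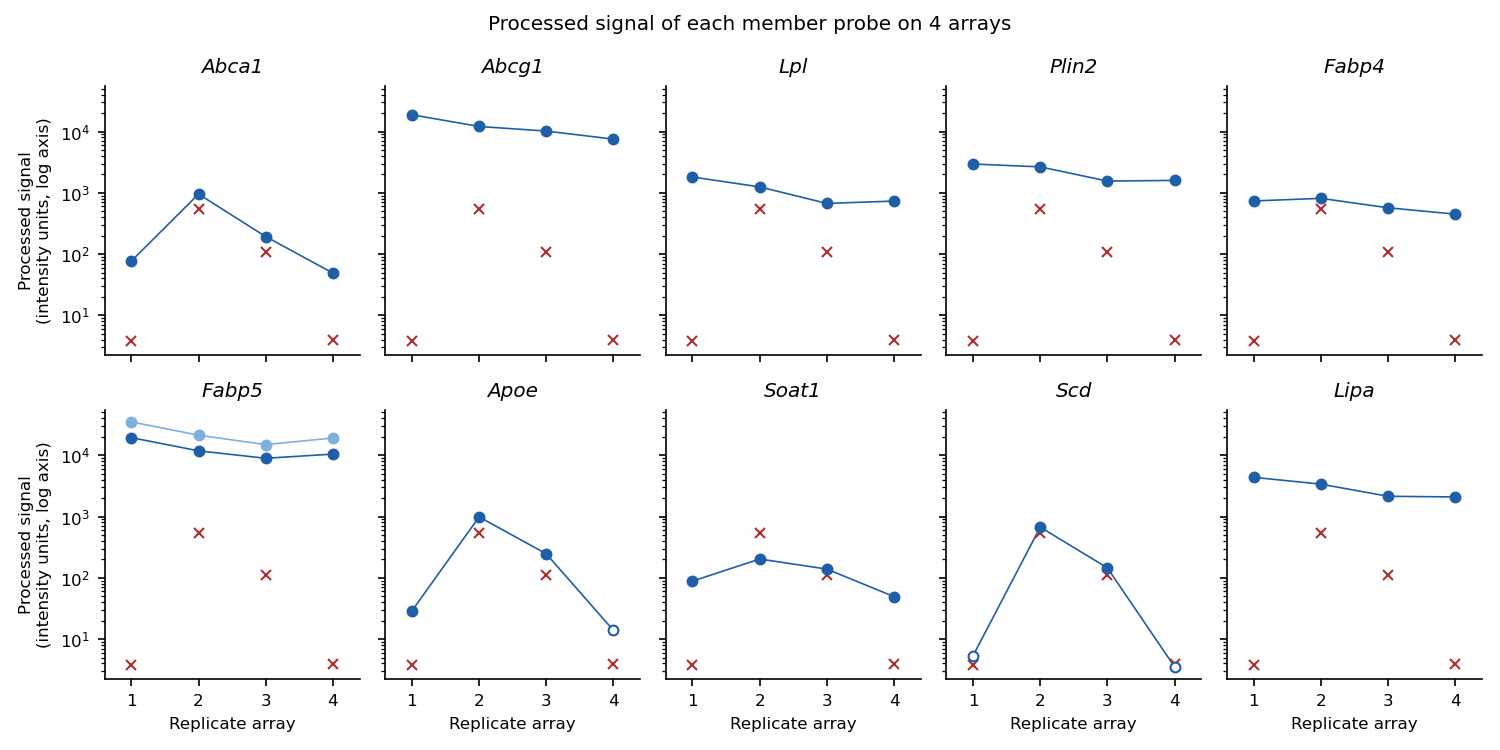
Processed signal in intensity units (log axis) of each probe of the 10 genes on replicate arrays 1 to 4. Filled points were well above background, open points were not, crosses mark the dimmest spike-in of that array, and lines join the points of a probe without implying an order. Fabp5 has 2 probes. Abca1, Apoe, Soat1 and Scd did not pass the threshold set from the spike-in on replicates 2 and 3, and Fabp4 did not on replicate 2. Abcg1, Lpl, Plin2, Fabp5 and Lipa passed it on every array. The threshold itself is not drawn.

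Efflux was represented by a transporter pair and an acceptor. Abcg1, which moves cholesterol to high-density lipoprotein, had a signal of 18784, 12095, 10174 and 7516 on replicates 1 to 4. Replicate 1 was the highest and replicate 4 the lowest. The probe lay 22.5-fold above the dimmest spike-in on replicate 2, where that spike-in read highest. Its level was 6.12 ± 1.80 (SD, n = 4).

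Abca1, which passes cholesterol and phospholipid to lipid-poor apolipoproteins, had a signal of 77.0, 954, 193 and 49.0 on replicates 1 to 4. The highest value came from replicate 2, 12.4 times that of replicate 1, and replicates 1 and 4 were the 2 lowest. On replicates 2 and 3 the probe stood 1.78-fold and 1.77-fold above the dimmest spike-in and did not pass the threshold set from it, which it passed on replicates 1 and 4. Its level was -0.03 ± 0.20. Only 1.40% of the 6904 genes tested for spread had an SD as small, and with the arrays scaled on the 3 brightest spike-ins the SD of Abca1 was 2.01.

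The bases before the start site of Abca1 are shown because the gene is a textbook target of LXR, which binds spaced direct repeats. RefSeq promoter windows of the GRCr8 assembly, 250 bases before to 50 after a start site, were given for 6 of the 10 genes, with 9 windows among them. Both strands were searched for TGACC followed after 5 bases by TAACC, a spelling of that repeat chosen with the Abca1 window in view, and for the E-box CACGTG, the TATA box TATAAA and TCACNCCAC, an element of SREBP. AGGTCA followed after 1 base by AGGTCA, a repeat bound by PPAR, was searched too. None of the matches found overlapped another. The window of Abca1 lies on the minus strand, and its 250 bases before the start site are at chr5:72596474-72596723. Capitals mark, from left to right, the E-box, the spaced repeat and the TATA box.

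Abca1: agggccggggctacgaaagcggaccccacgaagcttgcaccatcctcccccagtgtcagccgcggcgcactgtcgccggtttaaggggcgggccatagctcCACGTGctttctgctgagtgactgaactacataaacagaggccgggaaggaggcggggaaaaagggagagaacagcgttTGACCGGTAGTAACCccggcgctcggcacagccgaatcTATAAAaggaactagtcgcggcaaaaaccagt

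The spaced repeat lay at -70 to -56 from the start site. It was found in 0.0538% of 33469 windows and, among these genes, in Abca1 alone. Because the spelling was chosen with the Abca1 window in view, that match was fixed in advance. The low share is therefore no support for a site in Abca1. CACGTG was held by 6.42% of windows, those of Abca1 and Plin2 among them, and TATAAA by 14.2%. TCACNCCAC, in 1.12% of windows, and the PPAR repeat, in 0.0538%, were in none of the 9 windows of these genes. A match is a description of letters and was not tied to any binding in these data.

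Apoe, the apolipoprotein that macrophages secrete to accept cholesterol, was read by 1 probe printed as 10 spots. The mean signal was 28.9, 985, 246 and 13.9 on replicates 1 to 4, high on replicate 2 and low on replicates 1 and 4. The flag was set for all 10 spots on replicates 1, 2 and 3, and for 2 of 10 on replicate 4, so the call there depended on the rule for repeated spots. The lowest spot on replicate 1 was 22.8 and the highest on replicate 4 was 18.8, so the spots of these arrays did not overlap. Replicate 1 read higher for most genes, however. The ratio of replicate 1 to replicate 4 was 2.08 for Apoe. The median was also 2.08 over the 1652 genes of like signal on replicate 1. Repeated spots are not replicates of the culture. On replicates 1 and 4 all 10 spots passed the weaker flag of a positive and significant signal. With Apoe so close to background, no mean level is given.

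Uptake of fatty acids was represented by Lpl, which frees them from triglyceride-rich lipoproteins. Its signal was 1811, 1249, 672 and 733 on replicates 1 to 4. Replicate 1 was the highest and replicates 3 and 4 the lowest, with a level of 2.63 ± 1.85. The probe passed the spike-in threshold on every array, though on replicate 2 it was 2.33-fold above the dimmest spike-in.

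Fabp4 and Fabp5 encode fatty acid binding proteins of fat cells and macrophages and of skin, and lie near each other on chromosome 2 with 2 protein-coding genes between them, Fabp9 and Pmp2. The signal of Fabp4 was 736, 813, 571 and 449 on replicates 1 to 4. This was the smallest range of any of the 10 genes, with the highest array 1.81 times the lowest, and the level was 1.92 ± 1.58. On replicate 2 it stood 1.51-fold above the dimmest spike-in and failed the spike-in threshold there alone.

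Fabp5 was the only one of these genes with several probes, each printed as 10 spots. The brighter probe had a mean signal of 34919, 21249.7, 14897 and 19107 on replicates 1 to 4, and the level was 7.02 ± 2.00. The other probe gave 19341, 11795, 8912 and 10436. The order of the arrays was the same for both, and the ratio of brighter to other probe was 1.81, 1.80, 1.67 and 1.83 on replicates 1 to 4. Spots of the brighter probe had an SD of 0.11, 0.09, 0.13 and 0.14 log2 units on the 4 arrays, which covers repeated spots within an array only. For the other probe it was 0.08, 0.23, 0.20 and 0.15, smaller on replicate 1 and larger on the other arrays.

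**Figure D2:**
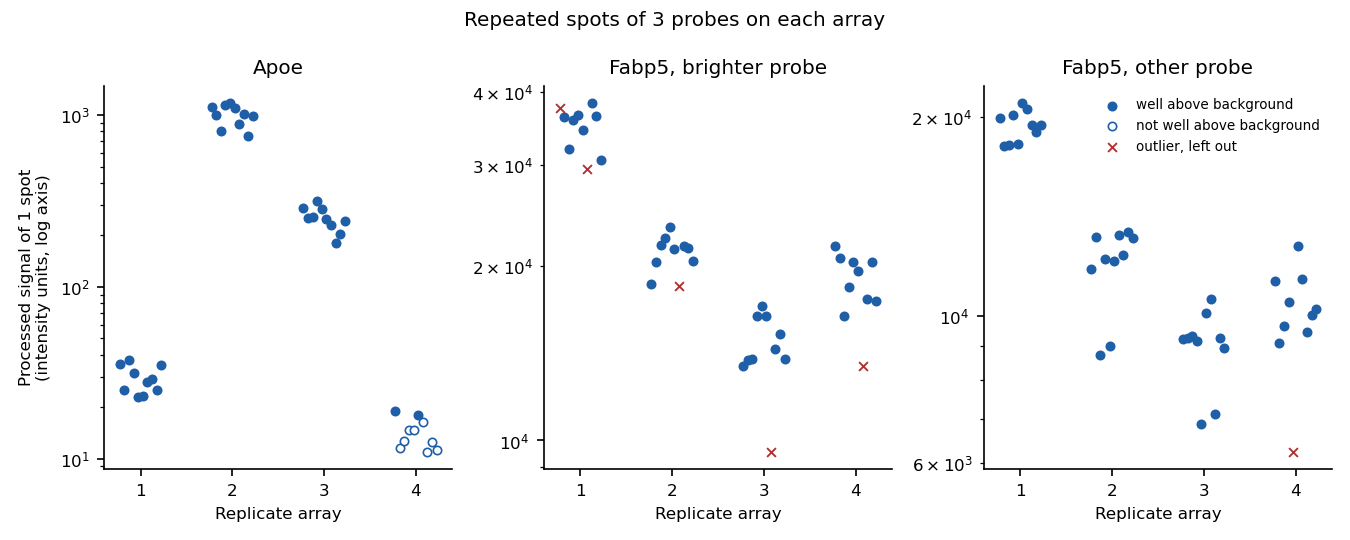
Processed signal in intensity units (log axes with separate ranges) of single spots of the 3 probes that are printed 10 times on each array. Filled points were well above background, open points were not and crosses are outlier spots that were left out. On replicate 4, 2 of 10 Apoe spots are filled, and every Fabp5 spot that was used is filled.

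Storage was represented by Plin2, above the dimmest spike-in on every array, and by Soat1, under it on replicate 2 alone. Plin2, which encodes the perilipin that coats lipid droplets in macrophages, had a signal of 2953, 2648, 1555 and 1594 on replicates 1 to 4. The highest signal was 1.90 times the lowest. The level after scaling was 5.06, 1.64, 2.82 and 5.14, highest on replicate 4 and lowest on replicate 2, with a mean of 3.66 ± 1.73. Of its 2 windows the one with an E-box is shown, with its 250 bases before the start site at chr5:106229019-106229268 on the minus strand and the E-box, at -67 to -62, in capitals.

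Plin2: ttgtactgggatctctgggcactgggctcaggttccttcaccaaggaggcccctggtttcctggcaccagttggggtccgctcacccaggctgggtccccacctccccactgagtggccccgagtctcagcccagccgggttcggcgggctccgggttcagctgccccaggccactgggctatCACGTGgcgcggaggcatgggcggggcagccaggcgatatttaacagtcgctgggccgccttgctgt

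Soat1, the enzyme that esterifies cholesterol for storage, gave 88.2, 202, 139 and 49.3 on replicates 1 to 4. It was well above background on each, with a level of -0.66 ± 1.005. On replicate 2 the signal was 0.377 times that of the dimmest spike-in, and Soat1 was the only member under that probe on an array where it was flagged as detected. Soat1 passed the spike-in threshold on replicates 1 and 4 alone.

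Lipa, the lysosomal acid lipase, had a signal of 4355, 3377, 2138 and 2084 on replicates 1 to 4, and a level of 4.10 ± 1.78. The highest array was 2.09 times the lowest, and the probe was 6.29-fold above the dimmest spike-in on replicate 2.

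Scd, the stearoyl-CoA desaturase that makes monounsaturated fatty acids for esters and triglyceride, was the member with the least support. Its signal was 5.35, 670.3, 145 and 3.52 on replicates 1 to 4. On replicates 1 and 4 this was 1.49 and 0.997 times the error that the scanner software gave for the spot. On replicates 2 and 3 the spot was flagged as well above background but was 1.25-fold and 1.33-fold above the dimmest spike-in, and the spike-in threshold was passed on 0 of 4 arrays. The 250 bases before its start site, at chr1:253231732-253231981 on the minus strand, are shown for comparison with those of Abca1, since Scd is a textbook target of LXR and SREBP. They hold none of the motifs searched, which says only that these letters are not in the window.

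Scd: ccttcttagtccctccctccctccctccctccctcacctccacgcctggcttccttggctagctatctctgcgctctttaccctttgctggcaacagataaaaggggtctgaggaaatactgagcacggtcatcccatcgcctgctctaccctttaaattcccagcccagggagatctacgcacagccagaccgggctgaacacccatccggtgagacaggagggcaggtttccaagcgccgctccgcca

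The arrays were next compared within the set. All 10 genes had a higher signal on replicate 1 than on replicate 4, as did 83.5% of all named genes. Among the 8 genes detected on both it was higher by 1.57 times for Abca1 to 2.50 times for Abcg1. After scaling, replicate 2 had the lowest level of every detected member but Abca1, whose level was highest there. A low level on replicate 2 was not particular to the set. Over the 6904 genes tested for spread, the median of replicate 1 minus replicate 2 was 3.00, and 3.52 over the members. The median of replicate 2 minus replicate 3 over those 6904 genes was -0.83. The difference in level between replicates 1 and 4 ran from -0.32 for Abca1 to 0.35 for Abcg1 among the 8 detected genes. Its median was -0.09, beside -0.01 over the 6904 genes tested for spread, whose 10th and 90th percentiles were -0.42 and 0.40. Lpl, with 0.33, lay on the side of Abcg1, and Fabp4, with -0.26, on that of Abca1. Replicates 1 and 4 are single arrays, so these differences have no test.

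Replicate 2 against replicate 1 split the set. The signal was higher on replicate 2 for 5 of 10 genes and lower for 5, and it was higher for 81.5% of all named genes and for 57.9% of those tested for spread. The ratio of replicate 2 to replicate 1 was 0.609 for Fabp5, 0.644 for Abcg1, 0.690 for Lpl, 0.775 for Lipa and 0.897 for Plin2, and 1.104 for Fabp4. It was 2.295 for Soat1, 12.4 for Abca1, 34.1 for Apoe and 125 for Scd, whose spot on replicate 1 was not well above background. All named genes were put into 10 groups of like size by their signal on replicate 1. The median ratio was 0.667 in the group that holds Abcg1, Plin2, Fabp5 and Lipa, and 87.1 in the group that holds Scd.

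Abca1 and Soat1 were in the same one of these groups, where the median ratio was 3.48, with quartiles of 1.97 and 5.997. Abca1 was above that range, with a ratio higher than 96.0% of the 1653 genes of the group, and Soat1 was within it. The share of named genes with a lower signal than Abca1 was 60.4%, 72.7%, 60.4% and 62.6% on replicates 1 to 4. For Soat1 it was 61.6%, 17.1%, 48.1% and 62.7%. On replicate 2 the quartiles of their group were 24.0% and 62.9%, so by position Soat1 lay below them and Abca1 above. Neither gene passed the spike-in threshold on that array, and each was read by 1 spot. Among the genes tested for spread, 6.36% moved further down between replicates 1 and 2 than Soat1 did. Abcg1, Plin2, Fabp5 and Lipa kept their position within 1 percentage point on all 4 arrays, Fabp4 went from 82.2% on replicate 1 to 66.1% on replicate 2, and Apoe and Scd went up by 21.4 and 25.7 percentage points. The position compares arrays for 1 probe and does not rank genes.

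**Figure D3:**
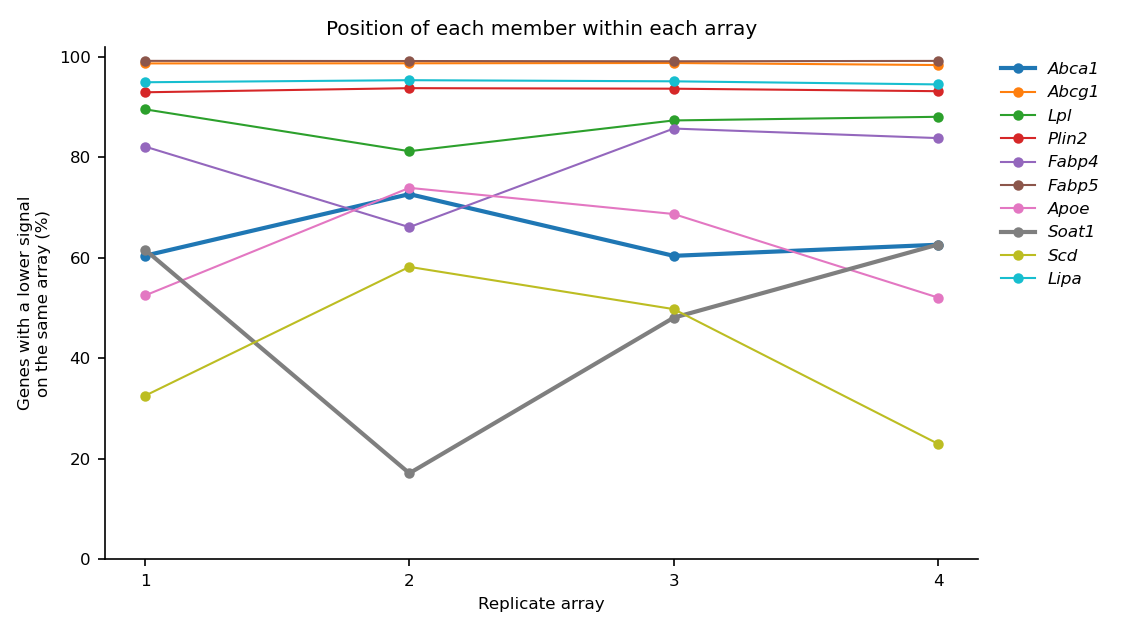
Percentage of all named genes whose signal was lower than that of each of the 10 genes, on replicate arrays 1 to 4; lines join the points of a gene without implying an order. Abca1 and Soat1, with thick lines, lie together on replicates 1 and 4, whereas on replicate 2 Abca1 is at 72.7% and Soat1 at 17.1%. Neither passed the spike-in threshold on replicate 2.

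The spread over the 4 arrays was tested for the 8 genes that passed the background filter on every array, which keeps only genes with a level on each. An F test set each gene's variance against limma's prior variance with a trend on level, fitted over 6904 genes. After Benjamini-Hochberg adjustment 0 members and 0 of all genes (0.0%) passed 0.05. A test that is not passed does not show that the spreads were alike. At an unadjusted p under 0.05 there were 0 members and 315 genes (4.56%), and with a robust prior 0 genes passed after adjustment and 222 before it. The smallest adjusted p among the members was 0.865 (F test, limma). The median SD of the 8 genes was 1.75 log2 units, beside 1.55 over all genes tested.

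Which member varied most depended on the scaling. With the 75th percentile over all probes the SD ran from 0.20 for Abca1 to 2.00 for Fabp5. Scaling on probes detected on all arrays gave 0.13 for Plin2, 0.18 for Lipa, 0.23 for Lpl, 0.29 for Fabp4, 0.35 for Abcg1 and 0.37 for Fabp5, against 0.82 for Soat1 and 1.72 for Abca1. On the spike-ins the first 6 ran from 0.40 to 0.59, with 0.95 for Soat1 and 2.01 for Abca1. Quantile scaling left 0.08 to 0.24 for Abcg1, Plin2, Fabp5 and Lipa, 0.42 for Abca1, 0.65 for Lpl, 1.20 for Fabp4 and 1.56 for Soat1. No setting gave an adjusted p at or under 0.05 for a member.

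**Figure D4:**
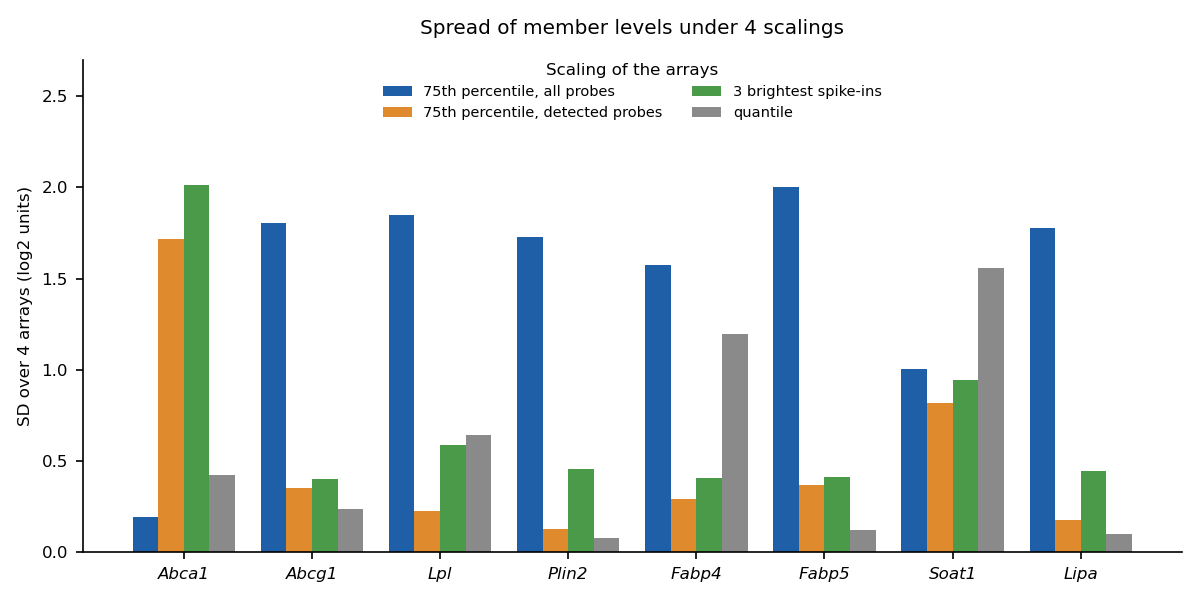
Standard deviation over 4 arrays, in log2 units, of the level of the 8 genes detected on every array, with bars from 0 and 1 colour for each way of scaling the arrays. Abca1 goes from the smallest SD, 0.20, with the 75th percentile over all probes to the largest, 2.01, on the spike-ins, and has 0.42 with quantile scaling.

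Other genes of the pathway were counted in 7 lists with 66 measured entries, of which 34 were detected on all 4 arrays and 36 on replicates 1 and 4, beside 42.4% and 45.9% of all named genes. Of 8 receptors for lipoproteins and fatty acids, 7 were detected on replicates 1 and 4 and 6 on all arrays. Cd36, the fatty acid translocase, had a signal of 11620 on replicate 1 and 6682 on replicate 4, and a level of 5.49 ± 1.93. The class A scavenger receptor gene Msr1 had a level of -0.39 ± 0.47, and the receptor for high-density lipoprotein Scarb1 one of 2.05 ± 1.94. The small SD of Msr1 came with signals of 48.5, 672, 258 and 30.5 on replicates 1 to 4.

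Genes of triglyceride synthesis, droplets and lipolysis were detected on all 4 arrays for 12 of 15 measured entries. Dgat1 and Dgat2, which complete triglyceride, had levels of 2.37 ± 1.26 and 1.92 ± 1.55, and Agpat2, an earlier step, one of 2.61 ± 1.60. Lpin1 was not detected on replicate 1 or 4. The droplet genes Plin4, Cidea and Cidec and the lipolysis inhibitor G0s2, chosen after their values were seen, were detected on all arrays, G0s2 with 5233 on replicate 1 and 3842 on replicate 4.

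Cholesterol trafficking and efflux genes were detected on replicates 1 and 4 for 7 of 11 entries and on all arrays for 6. Npc1 and Npc2, which carry cholesterol out of the lysosome, had levels of 1.46 ± 1.55 and 3.59 ± 1.77, and Nceh1, a cholesterol ester hydrolase, one of 0.53 ± 1.54. Soat2, the second esterifying enzyme, was not detected on replicate 4. Regulators were detected on all arrays for 8 of 11 entries. The LXR genes Nr1h2 and Nr1h3 had levels of 1.73 ± 1.53 and 4.76 ± 1.84, their partner Rxra one of -0.51 ± 0.28, and Pparg one of 4.78 ± 2.01. The small SD of Rxra came with signals of 61.6, 468, 193 and 33.0 on replicates 1 to 4. On replicate 2 Rxra was under the dimmest spike-in, at 537, as was Nceh1 with 313.

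Of 10 entries for fatty acid synthesis and desaturation, 1 was detected on replicates 1 and 4. The detected gene was Acly, which makes cytosolic acetyl-CoA, with a level of 4.13 ± 2.00. Fasn, the fatty acid synthase, and the carboxylase gene Acacb were detected on neither of these arrays, and the other carboxylase gene Acaca was not on replicate 4. Scd2, the paralogue of Scd and named after its values were seen, was detected on neither. Of 7 other binding protein genes listed beside Fabp4 and Fabp5, 0 were detected on replicate 1 or 4, Fabp1, Fabp2, Fabp3 and Fabp6 among them. Among genes that control lipoprotein lipase, Angptl4 was detected on all arrays with a level of 1.71 ± 1.87. Apoc3 was detected on all but replicate 4, and Gpihbp1 on 0 arrays.

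Markers of other cells that express several of these genes were read in the same way. On replicates 1 and 4, 3 of 6 adipocyte markers were detected, namely Cfd, Retn and Cidec, which the droplet list also holds, and Adipoq, Lep and Adrb3 were not. Adipoq, which defines fat cells, had signals of 3.51 and 3.21 there. Those of the detected markers were 51566 and 30139 for Retn, 2722 and 1221 for Cfd, and 774 and 457 for Cidec. Of 6 hepatocyte markers 0 were detected, with Alb at 3.47 and 3.43. Of 6 markers of alveolar type 2 cells 2 were, Napsa and Etv5, while the surfactant genes Sftpc, Sftpb and Sftpa1 were not. Napsa had signals of 9725 and 4202 on replicates 1 and 4, and Etv5 had 1465 and 652. In RNA of bulk cells, fewer cells of a type and less RNA per cell cannot be told apart.

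**Figure D5:**
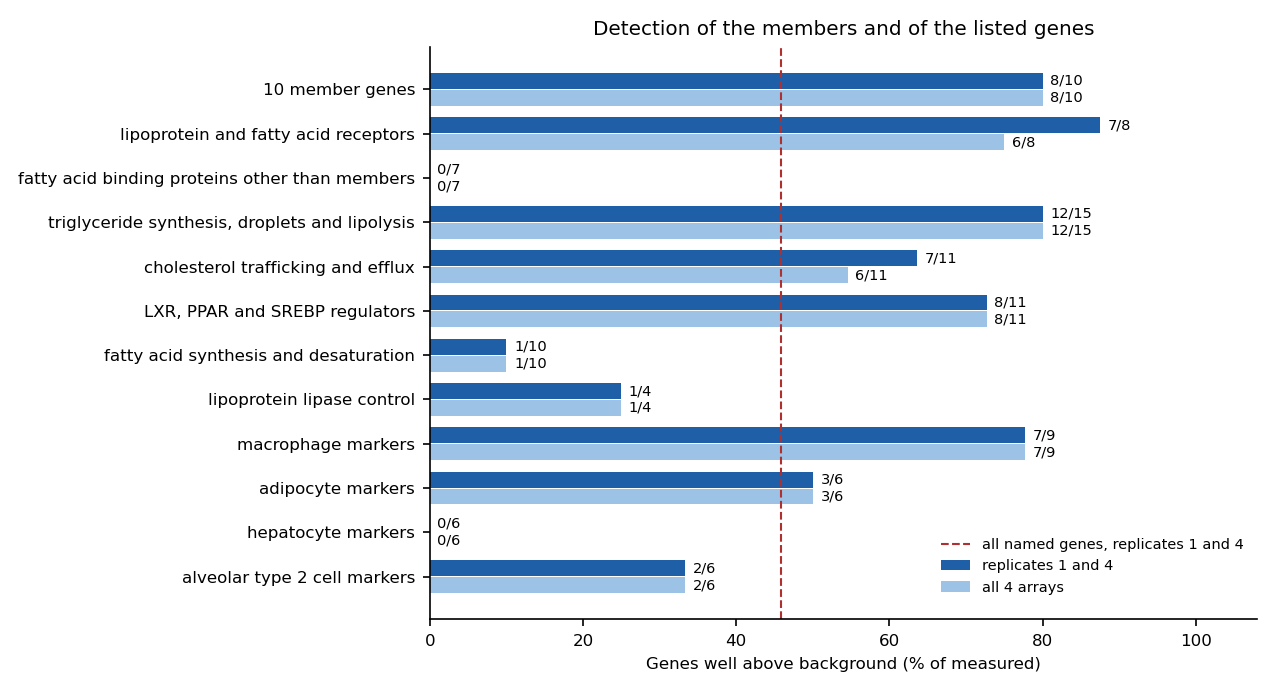
Percentage of the measured genes of each list that were well above background on replicates 1 and 4 (dark bars) and on all 4 arrays (light bars), with the counts beside the bars. The dashed line is the 45.9% of all named genes detected on replicates 1 and 4; the 10 genes lie above it with 8 of 10, and fatty acid synthesis lies under it with 1 of 10.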

How the data were processed

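RNA of 4 cultures of exposed NR8383 cells was measured on 1-colour Agilent arrays. Agilent Feature Extraction 11.0.1.1 produced them, per the submitters' processing notes. The intensity used is its processed signal, background subtracted per the file headers, and the detection flags come from the same deposited files. The deposited value table equals the median spot intensity on all 62976 spots of each array and was not used further. Control and outlier spots were dropped, log2 values of repeated spots were averaged, and 213 of 45598 probes had no spot left on an array. The 75th percentile of each array was subtracted. Accessions were named through RefSeq genes of the GRCr8 assembly, which named 21109 probes, and the probe of a gene with the brightest mean was taken. The number of arrays limits the precision. Spread was tested with limma 3.58.1, and the test was also run on simulated data. Those data were drawn for each gene on its own, without a shift shared by the genes of an array. That run therefore does not show how the test behaves with the shifts between these arrays. The 10 genes and the lists were chosen with earlier results of these data known. Of each list the first 4 measured genes are named, with a level where detected on all arrays; some values are not reported here. Alternatives were another flag, other scalings, normexp with an offset of 50, a robust prior, all probes and omission of each array in turn.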

Additional observations from a re-analysis of the deposited data

How the results depend on the processing

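The count of detected genes among the 10 was 8, and 8 to 9 under every alternative but 1. On the spike-in threshold on all arrays it was 5, where a count on replicates 1 and 4 by the same threshold gave 9; that threshold on replicates 1 and 4, and the rule that any flagged spot makes a probe detected, which gave 9, were chosen after seeing the data. Without each replicate in turn the count was 8 to 9, and for the pathway lists it was 34 to 39, against 34 on all 4 arrays. The share of all named genes went from 42.4% to between 42.6% and 46.7% in the same runs, and with the weaker flag the lists had 50 and all named genes 59.8%. No member had extra spread under any of 9 alternatives, and 0 did without any replicate. The median difference between replicates 1 and 4 over the 8 detected members was -0.09, and it became 0.39 with spike-in scaling and 0.35 with normexp, where the median over all genes tested became 0.47 and 0.28. With quantile scaling and with the percentile over detected probes it was -0.02 and -0.12. Mean levels moved by less than 1 SD in 80 cases. Some of these could not move, since spike-in levels were set to the mean of the main levels. Averaging of probes could change Fabp5 alone. The SD was that of the main scaling, 1.80 for Abcg1, where the percentile over detected probes gave 0.35. The 8 that moved by more came from that percentile, which lowers the mean level of every gene by the same amount. Its shift differs between arrays, so the SDs changed as well. Averaging both probes of Fabp5 gave a level of 6.60. No paired analysis was possible because the arrays form a single group. Signal over background limits Scd on replicates 1 and 4, and Apoe most on replicate 4, where the flag was set for 2 of 10 spots. On replicates 2 and 3 the flag also marks the dimmest spike-in.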

Other observations

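Ch25h, the enzyme that makes 25-hydroxycholesterol, a ligand of LXR, differed most between replicates 1 and 4 among the listed pathway genes. Its signal was 416, 708, 31.3 and 45.7 on replicates 1 to 4, and its level was 2.23, -0.26, -2.81 and 0.01, so replicate 1 had the highest level and replicate 3, where it was not well above background, the lowest. On replicate 2 the signal did not pass the spike-in threshold. Between replicates 1 and 4 the ratio was 9.10, and after scaling the difference was 2.22 log2 units. Of 7544 genes that passed the background filter on both arrays, 3 differed by as much, Ch25h included. Over all pathway genes on both arrays, 36 in all, the median absolute difference was 0.23 log2 units, beside 0.21 over all 7544 genes. Of the 36, 3 differed by more than 1 log2 unit, beside 143 of the 7544 (1.90%). The other two were the LXR gene Nr1h2, with 1.04, and Olr1, a receptor for oxidised lipoprotein, with -1.07. None of the 10 members differed by more than 1. Cyp27a1, which makes 27-hydroxycholesterol, came next with 0.99. In the variance test over the 4 arrays without a filter on dim probes, the adjusted p of Ch25h was 0.826 (F test, limma), so its spread over all 4 arrays did not pass the threshold. These genes were chosen after their values were seen.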
